A study of Mus musculus with 5 samples.

Results

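The array that measured thymic NKT cells with and without interleukin-15 carried 16181 probes that are named by a chromosome interval and a strand letter and by no gene. The members described here are the autosomal ones of these, 15604 probes, that were well above background on at least 2 of the 5 arrays. There were 5174 such probes, out of 55681 probes on the array in all. They covered 2587 of the 4429 autosomal pairs of interval and strand and 2093 of the 3387 intervals, so several probes often shared 1 interval. A further 147 probes on chromosome X met the same detection rule and were left out of the comparison. Members were thus chosen by their detection flags on these same arrays, so which probes entered is no finding. The files give each interval by its position on mouse build mm9 (NCBI37), per the file headers. They hold no statement that an interval is noncoding, so the working name of long noncoding intervals could not be checked. The letters F and R are taken here as the forward and reverse strand, which neither the labels nor the headers define.

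The study compared wild-type C57BL/6 mice (3 samples) with IL15-/- mice on the C57BL/6 background (2 samples, called IL15ko), which lack interleukin-15, a cytokine that supports NK cells, memory T cells and NKT cells. NKT cells, which are T cells that recognise lipids on CD1d, were sorted as CD3e+ CD1d tetramer+ cells from T-cell-enriched thymus suspensions, each pooled from 10 thymi. The labels give neither age nor sex of the animals, and do not tell whether samples of the same genotype were separate pools of animals. The p-values therefore rest on the spread among these 5 samples, and that spread may be technical.

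Long noncoding RNAs are transcripts that are often capped, spliced and polyadenylated like messenger RNA but are not translated. Many stay in the nucleus, where some recruit chromatin-modifying complexes or act on neighbouring genes, and their levels are often lower and more cell-type-restricted than those of messenger RNA. In T cells such transcripts change between subsets and with cytokine signals. No probe or interval sequence is printed, because the files used here list probe names without their bases and no genome of build mm9 was used. For the same reason no gene was assigned to an interval.

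Every level below is the log2 of the processed spot signal minus the 75th percentile of its array, so that 0 is that percentile and each unit is a doubling. Differences are IL15ko minus wild-type. A probe was called when its limma p, adjusted by the Benjamini-Hochberg method over all 26487 probes tested on the array, lay under 0.05.

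Detection of interval probes differed between arrays more than between strands. Of the autosomal interval probes, 29.9%, 32.9% and 36.2% were measured, that is well above background, on wild-type 1, 2 and 3, and 29.1% and 16.3% on IL15ko 1 and 2. Other probes of the array reached 50.8%, 52.6%, 55.2%, 51.8% and 41.2% in the same order. IL15ko 2 was therefore the array on which the fewest were measured. Of the 7890 F probes 32% were members (2527), and of the 7714 R probes 34.3% (2647). All 5 arrays measured 2431 probes, 4 arrays 1484, 3 arrays 600 and 2 arrays 659. The rest fell below the rule, 1331 measured on 1 array and 9099 on none. Just inside the threshold, the 659 probes measured on 2 arrays had a median highest signal of 24.9 intensity units (quartiles 21.2 and 31.8) and a median log2 difference of -0.37. Just outside it, the 1331 probes measured on 1 array had values of 19.7 units (17.1 and 24.4) and -0.16.

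Against this background of detection, few interval probes differed between the groups. Of the 5174 members, 30 were called higher and 62 lower in IL15ko, together 1.78%, where 2.73% of all probes tested were called (1.2% higher and 1.53% lower). The share was thus below that of the array as a whole. Members had a larger median residual SD, 0.43 against 0.23 in probes that are no interval probes. Its part in the lower share was not tested. Groups did not overlap in 31.9% of members, against 42.2% of all probes tested. Log2 differences of the called members ran from 1.05 to 2.11 where higher and from -5.30 to -0.92 where lower, and the smallest adjusted p was 0.0106. The counts rested on every array: leaving out any 1 of the 5 left 0 members called higher and 0 to 3 lower (limma; at an unadjusted p under 0.05, 159 to 374 higher and 493 to 1417 lower). The count was also 0 in both directions with wild-type 1 and 2 averaged into 1 sample (176 higher and 528 lower at an unadjusted p under 0.05), with a normexp background correction (94 and 122) and with dim probes kept in the test (132 and 566). Over all probes tested, 0.0378%, 0.00378% and 0.00718% were called in the same order, so nearly all calls of the array were lost there too.

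The median log2 difference was -0.19 over members and -0.05 over all probes tested. Over the members measured on all 5 arrays, it was -0.01, and over such probes that are no interval probes it was 0.03. Members measured on 4, 3 and 2 arrays had medians of -0.44, -0.43 and -0.37. A low IL15ko signal removes a detection flag, so the negative medians of those classes are in part built into how they are formed. The lowest level well above background was -4.92 on IL15ko 2, against -6.53 on IL15ko 1 and -7.22 to -6.17 on the wild-type arrays. Of the 62 lower members, 29 were measured on all 3 wild-type arrays and on neither IL15ko array, out of 295 members with that pattern. Those 29 entered through the group in which they were high, and the 2 groups cannot be compared on members of that kind as a set. In the opposite direction, 1 member was measured on both IL15ko arrays and on no wild-type array, and it was not called.

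The 2 strands differed little in their medians, -0.19 for F and -0.20 for R. Calls were spread differently. Among 2527 F members 25 were higher and 25 lower, and among 2647 R members 5 were higher and 37 lower. Members of 1 interval are not independent, however. The 25 higher F calls came from 11 targets, where a target is 1 interval on 1 strand, and from 8 loci, where a locus joins members with gaps under 50 kb on either strand. The 5 higher R calls came from 4 loci. Lower calls came from 19 loci on F and 28 on R. Outside the 5 loci described next, 6 F and 5 R members were higher and 22 F and 30 R members lower, so that 19 of the 25 higher F calls lay in 3 of those loci. No test of the strands against each other was made.

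**Figure D1:**
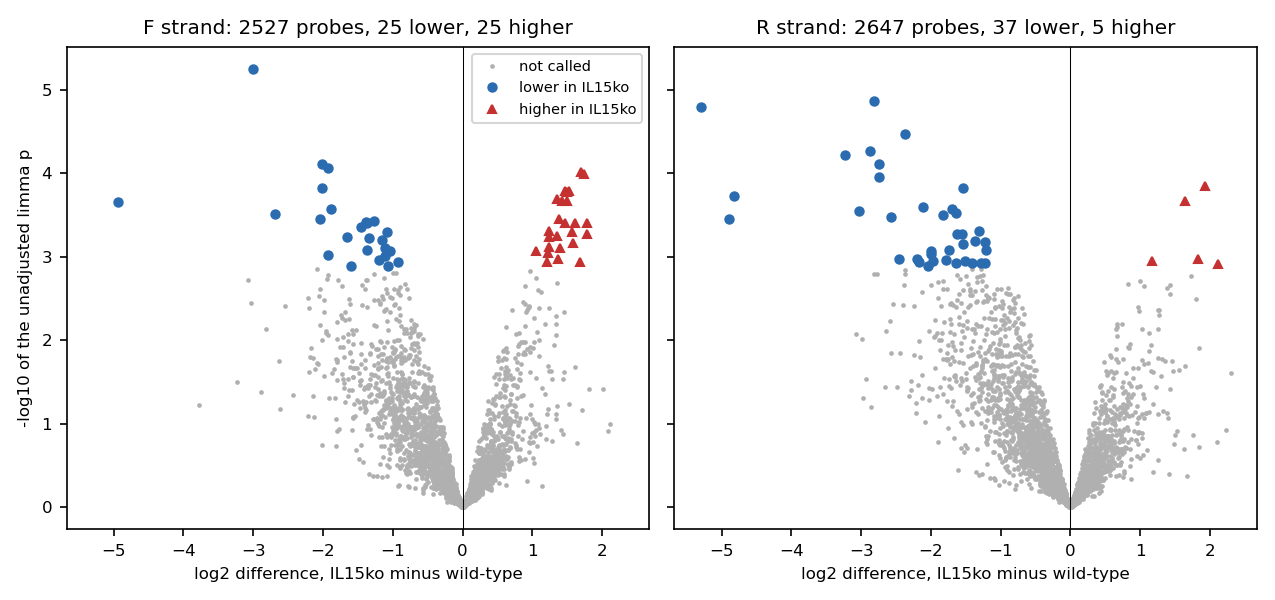
Log2 difference (IL15ko minus wild-type, x axis) against -log10 of the unadjusted limma p (y axis) for the 2527 F and 2647 R members, with called members in blue (lower) and red (higher). The F panel holds 25 higher calls, the R panel 5, and the falls reach further from 0 than the rises in both.

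The 5174 members formed 1237 loci, of which 55 held a called member and 5 held at least 3. These 5 loci held 29 of the 92 called members. No locus had calls in both directions.

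The largest changes of all stood on chromosome 6, at chr6:131263850-131314850 (51.0 kb, 2 overlapping intervals, 3 F and 5 R members). In this locus 6 of the 8 members were lower, 2 on F and 4 on R. R probe A_30_P01020827 had levels of 1.64, 1.70 and 0.95 in wild-type 1 to 3 and of -4.16 and -2.63 in IL15ko 1 and 2. It was 28.3-fold lower in IL15ko (95% confidence interval 11.4 to 70.0, log2 difference -4.82 ± 0.51 SE, adjusted p = 0.0272). A second R probe, A_30_P01019563 in the nested interval chr6:131272447-131303615, gave 0.48, 0.62 and -0.32 against -5.52 and -3.75, a 29.8-fold fall (10.5 to 85.0, adjusted p = 0.0351). In both, all wild-type arrays stood far above both IL15ko arrays, and IL15ko 1 was the lowest. Both calls were lost with any 1 array left out (adjusted p from 0.0547 to 0.173), while the log2 differences then ran from -5.78 (without IL15ko 2) to -4.01 (without IL15ko 1).

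Other probes of this locus had no measured level without interleukin-15, so their falls are bounds. They compare the wild-type mean with, on each IL15ko array, the higher of the probe's own signal and the lowest signal well above background. Probes given as bounds entered through wild-type alone, and their adjusted p values come from the limma fit, not from the bounds. R probe A_30_P01021282 had wild-type levels of -1.30, -1.07 and -1.96, and was not well above background in IL15ko, at least 19.5-fold lower (adjusted p = 0.0136). F probe A_30_P01030456, on the opposite strand, had -2.42, -2.32 and -3.46 and was at least 7.96-fold lower (adjusted p = 0.0282). Both called F probes (the other is A_30_P01023539) had no measured level in IL15ko and so entered through wild-type alone. The F probe measured in both groups, A_30_P01024192, did not share the fall, with a log2 difference of 0.25, an unadjusted p of 0.494 and overlapping groups. The R probe A_30_P01030882 of the nested interval had a difference of -1.71 and did not pass (adjusted p = 0.0728).

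A locus on chromosome 3, chr3:19179899-19216399 (36.5 kb, 9 F and 9 R members), held 4 members called lower (1 F, 3 R), none of which was measured in IL15ko. All 18 members had a negative difference, from -2.82 to -0.15. Relative to the wild-type mean of each probe, the average of the 9 R members was 0.19, 0.25 and -0.44 in wild-type 1 to 3 and -1.93 and -2.47 in IL15ko 1 and 2. The 9 F members averaged -0.03, 0.02 and 0.01 against -0.96 and -1.49. Both IL15ko averages lay below those of every wild-type array on either strand, but they include the members that entered through wild-type alone. The called members include R probes A_30_P01019054 (-4.36, -4.10 and -4.46 in wild-type, adjusted p = 0.0136) and A_30_P01020486 (-4.08, -4.07 and -4.66, adjusted p = 0.0226). Of all 18 members, 4 were measured on all 5 arrays, and their differences were smaller, -0.69, -0.42, -0.15 and -0.29, with no call. The F call, A_30_P01031732, had a difference of -1.60 that turned to 0.17 with the normexp background correction.

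The other 3 loci were higher in IL15ko, and their calls were on F alone. On chromosome 1, chr1:139713316-139913366 (200 kb, 7 intervals) held 17 F and 6 R members, and 22 of the 23 had a positive difference. In the F members the average relative to wild-type was -0.05, -0.02 and 0.07 in wild-type and 1.26 and 0.80 in IL15ko, with 8 called higher. R members averaged -0.02, 0.26 and -0.25 against 0.30 and 0.08, so that IL15ko 2 lay within the wild-type range, and none was called (the R differences ran from -1.76 to 0.79).

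Over the short F intervals of this locus, the median difference fell from each to the next along the chromosome. The first and second overlapped in probe range, 1.39 to 1.74 and 1.37 to 1.69, and the order was not tested. The 2 F members of the spanning interval, at 0.50 and 0.61, are left out of it. The median of 3 F members each was 1.5 at chr1:139795171-139796306, 1.40 at chr1:139806645-139809498, 1.23 at chr1:139822286-139822985, 0.83 at chr1:139847592-139848243 and 0.40 at chr1:139856545-139857204. The first 3 of these short intervals held all 8 calls. Probe A_30_P01024091 of the first rose from -1.72, -1.84 and -1.68 to 0.11 and -0.13, 3.34-fold (2.5 to 4.45, adjusted p = 0.0229). Probe A_30_P01032513 of the second rose from -1.09, -1.12 and -1.15 to 0.45 and 0.70, 3.24-fold (2.45 to 4.27, adjusted p = 0.0226). The SDs over the wild-type arrays were 0.08 and 0.03, and a spread that is small beside the change is part of what a call requires.

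On chromosome 10, chr10:83181374-83249918 (68.5 kb, 3 nested intervals) rose on one strand. All 9 F members had a positive difference and 7 were called higher, among them A_30_P01030126, which went from -3.14, -3.25 and -3.13 to -1.54 and -1.75 (2.89-fold, 2.18 to 3.81, adjusted p = 0.0267). None of the 5 R members was called, and 4 of them had a negative difference. Relative to wild-type, F members averaged 1.39 and 1.11 in IL15ko 1 and 2 and R members -0.28 and -0.11. The R averages of both IL15ko arrays lay within the wild-type range of -0.30 to 0.17. All 5 R members, and 8 of the 9 F members, were measured on all 5 arrays.

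The last rising locus, chr14:22267795-22319045 (51.3 kb, 1 interval), had the same arrangement with fewer probes. Of its 6 F members 4 were called higher. Among these, A_30_P01025547 was measured on only 1 wild-type and 1 IL15ko array, with levels of -6.44, -7.09 and -6.89 in wild-type, near the detection limit. Probe A_30_P01020306 rose from -1.47, -1.42 and -1.32 to -0.03 and -0.05, a change of 1.36 on the log2 scale (adjusted p = 0.028). Probe A_30_P01030383 rose from -4.10, -3.93 and -3.58 to -2.31 and -2.28 (2.98-fold, adjusted p = 0.0384). One F probe of the interval, A_30_P01027489, stayed apart from these with a log2 difference of 0.04 and overlapping groups. The single R member had a difference of -0.10 and overlapping groups.

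**Figure D2:**
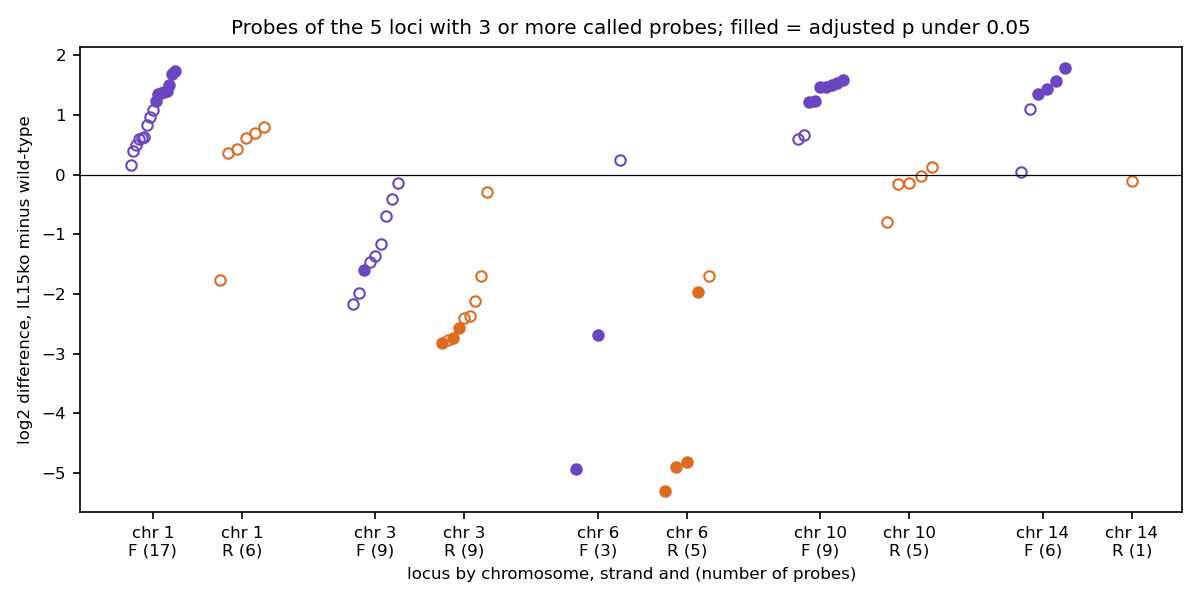
Log2 difference (IL15ko minus wild-type, y axis) of every member of the 5 loci with at least 3 called members, split by chromosome and strand (x axis, number of members in brackets); filled points were called. The chromosome 3 and 6 loci lie below 0 on both strands with 1 exception on chromosome 6, while the F members of the chromosome 1, 10 and 14 loci lie above 0 and the median of their R members is lower.

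The 5 loci with the most members held few calls, but the chromosome 1 locus above, with its 23 members and 8 calls, tied with the fifth of them. The largest, chr11:95561419-95658549 with 28 members, had 25 negative differences (median -0.72) and no call (smallest adjusted p = 0.0599). The next, chr15:61870759-62102500 with 25 members, ranged from -1.99 to 1.44 with no call. At chr16:89961600-90127636, 17 of 24 members were positive and 1 was called higher. In contrast, 21 of 24 members at chr19:5771425-5848475 were negative and 1 was called lower. The fifth, chr1:138442536-138632310, had likewise 23 members with a median of -0.13 and no call.

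Beyond those loci, the falls measured on all 5 arrays were led by an interval on chromosome 5. F probe A_30_P01027478 at chr5:96591892-96606467 had levels of -1.91, -1.91 and -2.04 in wild-type and -5.06 and -4.84 in IL15ko, 8.0-fold lower (6.04 to 10.6, adjusted p = 0.0106). A second F probe of the interval, A_30_P01031757, went from -2.77, -2.55 and -2.70 to -4.94 and -4.45 (4.06-fold, adjusted p = 0.026). Within wild-type and IL15ko the SDs were 0.07 and 0.16 for the first probe and 0.11 and 0.34 for the second. An SD that is small beside the difference follows from how these probes were chosen, so it adds no support. The 2 R members of that interval had differences of -1.57 and -1.44, and the smaller of their adjusted p values was 0.0673, just past the threshold.

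The remaining falls among the 10 largest were between 2.53-fold and 3.24-fold. The largest of them was R probe A_30_P01028236 at chr9:20313342-20323517, with -1.96, -1.93 and -2.17 against -3.52 and -3.91. At chr1:88187397-88187862, R probe A_30_P01029577 was 3.08-fold lower. Both R probes of a short interval of 567 bases, chr7:80762708-80763274, were lower, A_30_P01023480 by 2.91-fold and A_30_P01025522 by 2.58-fold, the latter from -0.77, -0.73 and -0.75 to -2.33 and -1.90. R probe A_30_P01020523 at chr11:6421951-6429173 went from 2.02, 1.89 and 1.46 to 0.32 and 0.44 (2.66-fold, adjusted p = 0.0475). F probe A_30_P01032736 at chr7:28592214-28605984 was 2.53-fold lower. In all 10 falls each wild-type array stood above both IL15ko arrays, as the rule for naming them required.

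Among rises outside the 3 loci, an interval on chromosome 13 had the largest. R probe A_30_P01024922 at chr13:34693404-34717987 rose from -5.72, -5.23 and -5.89 to -3.53 and -4.04 (3.55-fold, 2.17 to 5.82, adjusted p = 0.0462). A second R probe there, A_30_P01018665, measured on 2 wild-type and both IL15ko arrays, rose 4.33-fold (adjusted p = 0.0478). On the other strand the interval's single F member had a difference of -1.18 and was not called. On chromosome 6, F probe A_30_P01022314 at chr6:83368261-83407280 rose from -2.78, -2.43 and -2.71 to -1.19 and -0.85 (3.07-fold, adjusted p = 0.036). The other 8 of the 10 largest rises were probes of the chromosome 1, 10 and 14 loci, between 2.76-fold and 3.34-fold.

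**Figure D3:**
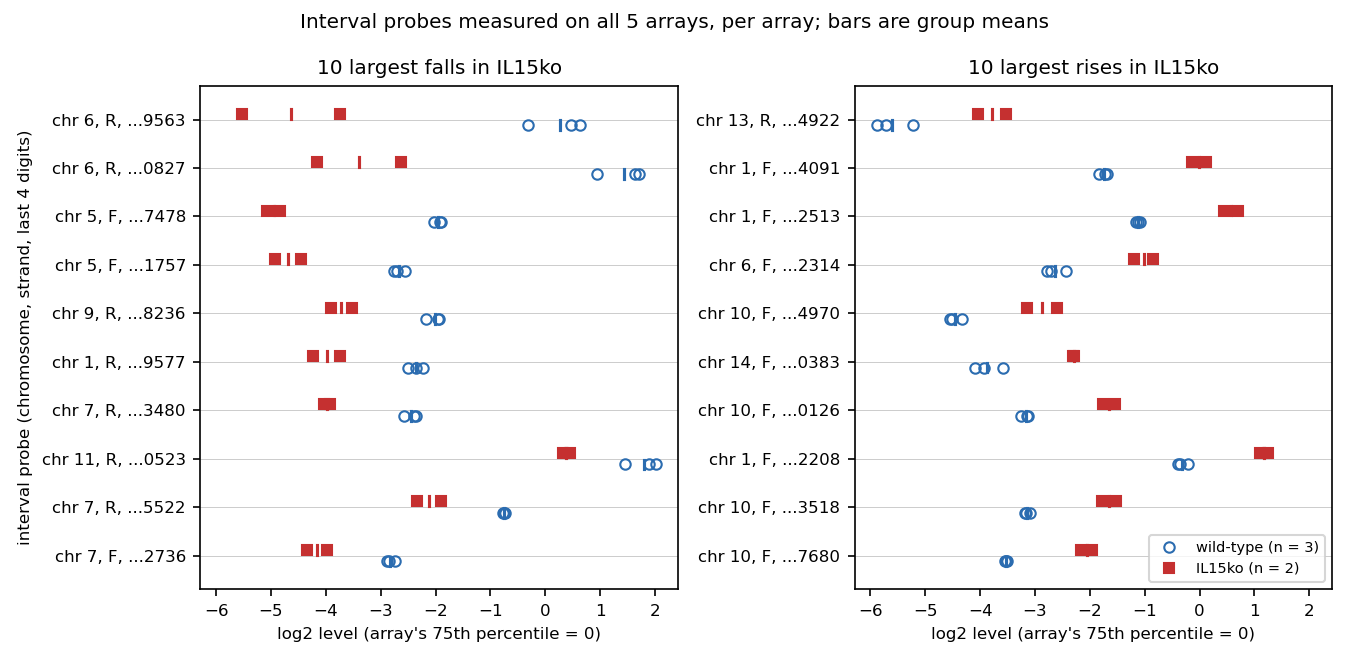
Log2 level of the 10 members with the largest falls and the 10 with the largest rises among called members measured on all 5 arrays (x axis, array's 75th percentile at 0), 1 point per array and group means as bars; rows give chromosome, strand and the last digits of the probe name. Falls reach 29.8-fold on chromosome 6, while rises lie between 2.76-fold and 3.55-fold.

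A further 28 lower members were measured on all 3 wild-type arrays and on neither IL15ko array with a bound above 1, from 1.05-fold to 19.5-fold. After those of chromosome 6, the next bounds belonged to 2 R probes of chr9:96664617-96683617, A_30_P01020519 (-3.38, -3.57 and -4.17 in wild-type, at least 4.06-fold, adjusted p = 0.0311) and A_30_P01032514 (-3.49, -3.56 and -4.12, at least 4.01-fold, adjusted p = 0.0226). The 2 F members of the same interval had a mean difference of 0.14 and were not called. R probe A_30_P01027314 at chr10:94870971-94871658, an interval of 688 bases, had -4.15, -4.28 and -4.28 in wild-type and was at least 2.82-fold lower (adjusted p = 0.0188). No higher member met the mirrored rule. These lower members entered through wild-type alone. Their adjusted p values come from the limma fit on IL15ko signals not well above background, not from the bounds.

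Opposite strands of an interval had differences that were only weakly related. Of 1042 autosomal intervals with probes for both strands, 494 had a member on each, 190 on F only, 203 on R only and 155 on neither. Over the 494, the mean difference of the F members and that of the R members had the same sign in 274 intervals (55.5%), with a Pearson correlation of 0.13. This is a description over intervals that share the same 5 arrays. Calls were made on both strands in 4 of the 494 intervals, on F only in 14, on R only in 12 and on neither in 464. One of the 4, chr6:54591416-54597566, was higher (mean differences of 1.03 on F and 0.99 on R). Its R call, A_30_P01032135, was measured on only 1 wild-type and 1 IL15ko array, with levels of -6.75, -6.70 and -7.03 in wild-type, near the detection limit. The other 3 were lower, namely the chromosome 3 and 6 intervals above and chr15:59966962-59972812 (-1.49 and -2.0). In each of these 3 the F calls were not measured in IL15ko, and so entered through wild-type alone, as did the R calls of chromosome 3. The difference between strands was large where R alone was called at chr14:55433382-55452757, with 2 R members lower and means of -0.72 on F and -2.50 on R (smallest adjusted p = 0.202 on F and 0.0226 on R). It was also large where F alone was called at chr17:6806500-6861042, with means of -1.17 on F and 0.37 on R.

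**Figure D4:**
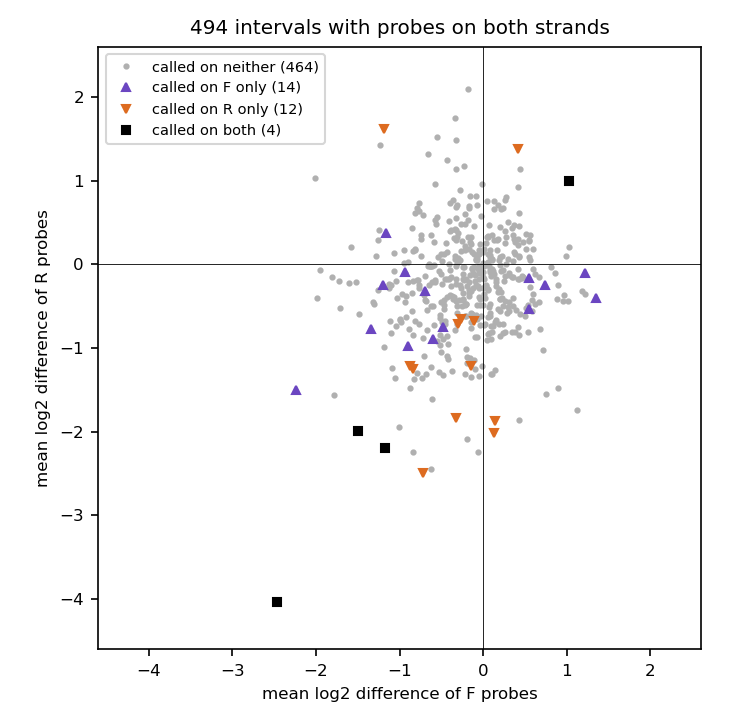
Mean log2 difference of the F members (x axis) against that of the R members (y axis) in the 494 intervals with members on both strands, marked by which strand held a call. The cloud has a Pearson correlation of 0.13, and the 4 black squares, called on both strands, lie on the side of 0 shared by both strands.

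With members measured on all 5 arrays alone, 208 intervals had both strands, 108 of them (51.9%) with the same sign, and the correlation was 0.16.

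Probes of the same interval and strand were compared with each other. In the 541 targets with at least 2 members measured on all 5 arrays (1510 members), the median SD of the log2 difference within a target was 0.21, while the SD over all these members was 0.62. All members had the same sign in 333 of the 541. Of the 64 targets with a called member, 59 had 2 or more members. These 59 held 153 members that were not themselves called, and 136 of the 153 had the sign of the call. No target held calls of both directions. Probes of a target share the same RNA and may overlap, so they are no replicates of a condition.

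Detection and calls were also read by the length of the interval. With the autosomal intervals split by length into 4 classes of equal number, 27.9%, 36%, 34.5% and 32.4% of probes were members, from the shortest (up to 794.5 bases) to the longest (over 21818 bases). The share of members called was 1.68%, 2.39%, 1.06% and 2.11% in the same order, all below the 2.73% of the array.

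All 19 autosomes carried at least 1 lower call and 8 carried a higher one. Chromosome 10 had the highest share called, 6.04% of 182 members (8 higher and 3 lower), and chromosome 8 the lowest, 0.294% of 340 (1 lower). Of the 11 calls on chromosome 10, 7 belonged to the locus above, and outside it 2.38% of 168 members were called. The chromosome 1 share fell likewise, from 2.91% to 1.03% outside its locus. Chromosome 17 had 7 lower calls on 6 targets and no higher call, and chromosome 18 had 4 lower calls on 2 targets. These were 1.97% of 356 and 2.29% of 175 members, where 2.73% of all probes tested were called. Median differences ran from -0.37 on chromosome 7 to 0.01 on chromosome 10 and were negative on 18 of the 19. These medians mix members measured on 2 to 5 arrays, and over members of all autosomes measured on all 5 arrays the median was -0.01. Members numbered from 137 on chromosome 19 to 412 on chromosome 1, and detection ranged from 24.6% of probes on chromosome 9 to 42.5% on chromosome 19.

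**Figure D5:**
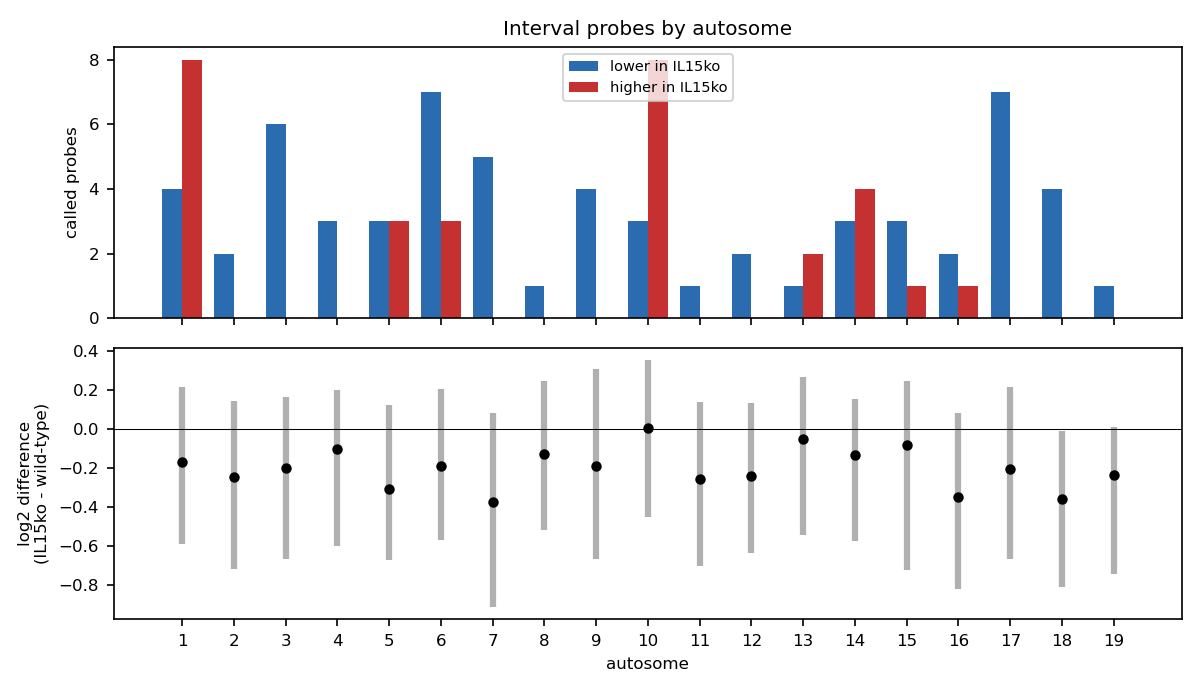
Upper panel: number of members called lower (blue) and higher (red) in IL15ko by autosome. Lower panel: median log2 difference with its quartiles (grey bars) by autosome. Higher calls gather on chromosomes 1 and 10, with 8 each. Medians, which mix members measured on 2 to 5 arrays, are negative on 18 of 19 autosomes.

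Long noncoding RNA genes that the array measures by accession were set beside the intervals. Of 67 listed autosomal genes 34 had a probe and 26 were tested, with the brightest probe standing for a gene. Their median difference was -0.10, and 1 was called lower and 1 higher, where 2.73% of all probes tested were called. So small a count is no result about the list. Rpph1, the RNA of ribonuclease P, went from a mean of -1.68 ± 0.12 (SD, n = 3) to -3.08 ± 0.11 (SD, n = 2), 2.64-fold lower (adjusted p = 0.0316). A930005H10Rik, an uncharacterised transcript, went from -2.44 ± 0.05 to -1.42 ± 0.14, 2.03-fold higher (adjusted p = 0.0454). Rmrp, the RNA of the related ribonuclease MRP, had a difference of -1.29 that did not pass (adjusted p = 0.0689). Neither did Malat1, an abundant nuclear RNA, at -0.96 (adjusted p = 0.069). Neat1, the scaffold of paraspeckles, had a difference of -0.44 with overlapping groups (adjusted p = 0.531).

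Sorted cells carried the markers of their label. Of 10 listed NKT and T-cell genes 8 matched a probe and all 8 were measured on all 5 arrays, among them Cd3e (4.23 ± 0.06 SD in wild-type, 4.18 ± 0.12 in IL15ko), the CD3 chain used in the sort. Among the 8, 3 differed between the groups along with the interval calls. Zbtb16, which encodes the NKT factor PLZF, was 2.83-fold higher in IL15ko (adjusted p = 0.0356), and the signalling receptor gene Slamf6 was 2.95-fold higher (adjusted p = 0.0272). Klrb1c, which encodes NK1.1, a marker of mature NKT cells, was 3.36-fold lower (adjusted p = 0.0305). The part of NKT maturity in the interval calls was not tested. The 5 markers of double-positive thymocytes were on no array well above background. Of the NK-cell markers, Ncr1 was measured on 0 arrays and Eomes on 1 wild-type array. Among B-cell markers 1 of 4 was measured on all 5 arrays (Cd79b), and among macrophage and dendritic-cell markers 2 of 4 (Csf1r and Siglech), while Lyz2 and Itgax were on none. The summed linear level of the macrophage and dendritic-cell list was 30.9 to 48.5 in wild-type and 30.2 to 40.7 in IL15ko. Nearly all of it was Siglech, at 5.32 ± 0.35 (SD) in wild-type and 5.13 ± 0.31 in IL15ko. This level was higher than that of Cd3e or any other listed marker. Csf1r, the receptor of a macrophage growth factor, had means of -0.94 and -3.22, a difference of -2.28 (adjusted p = 0.0782). The part of other cells in the interval calls was not tested, and in sorted bulk cells fewer cells of a type and less RNA per cell cannot be told apart. The targeted gene, Il15, lay below that detection limit on all 5 arrays, so it does not check the genotype labels.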

How the data were processed

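Each of the 5 samples was hybridised to 1 one-colour (Cy3) Agilent array, all on 1 slide. The authors deposited the scanner output, which per the file headers comes from Agilent Feature Extraction 10.7.1.1 and gives each spot's linear intensity. The processed signal in it has had background and spatial trend removed and carries no scaling across arrays. Limma is listed in the submitters' processing notes. The value table that the authors deposited is also an intensity, and between 99.5% and 99.9% of its values on an array equal the spot median less the local background median plus 1 constant to within 0.01. The remaining values do not follow this. Column medians of that table were 25.2, 22.6, 26.0, 24.4 and 15.7, and no scaling was found in it.

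Log2 processed signal was centred on each array's 75th percentile, taken over the 18529 probes detected everywhere. Control spots, outlier spots (1 member value) and 13 interval names without a strand were left out, and repeated spots were averaged. No probe was saturated. IL15ko was tested against wild-type in R 4.3.3 with limma 3.58.1 (lmFit, eBayes, no covariates, 3 residual and 2.21 prior degrees of freedom) over all 26487 probes well above background on at least 2 arrays. The procedure was tested on simulated data with independent noise, which cannot show how the calls above depend on single arrays. Intervals of folds are at 95%. The number of arrays limits the precision, and with 3 against 2 an exact permutation test of 1 probe cannot go below 0.1.

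Genes were named through RefSeq accessions of GRCm38.p6 (26425 probes), from which no coordinate was used. Members, lists and loci were chosen with earlier results of these data known. Named were the 10 largest changes per direction among called members measured on all 5 arrays without overlap, up to 5 bounds per direction, 6 strand pairs by smallest p, the 5 largest loci and those with at least 3 calls. Other probes of those loci, the pairs called on both strands and the chromosome 13 interval were described after their values were seen. Alternatives covered background correction, scaling, the filter, the variance prior, the value table, the replicate block and each array left out.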

Additional observations from a re-analysis of the deposited data

How the results depend on the processing

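Changes of filter or variance prior leave a log2 difference as it is, and leaving out or averaging arrays cannot turn the sign of groups that do not overlap, so these say nothing on direction. Both other centrings shift every log2 difference by the same constant. The member median was -0.192 with median centring and -0.161 with centring on all probes. Called differences were at most -0.92 or at least 1.05, so these shifts could turn no sign either. All 92 called members kept their sign under quantile normalization and the authors' value table, and 73 of 92 did under a normexp background correction with an offset of 50 (chosen after seeing the data, since the files hold no mean signal for the planned form). Of 42 members followed singly, 2 changed sign there, A_30_P01031732 (log2 difference 0.17) and A_30_P01032493 (0.13). Bounds also hold only for the main background correction: with normexp A_30_P01021282 had a difference of -2.26, and A_30_P01027314 one of -0.41. Counts moved with most choices from 30 higher (25 F, 5 R) and 62 lower (25 F, 37 R). With normexp, without a filter on dim probes, and with wild-type 1 and 2 averaged, 0 were called in either direction and on either strand (limma; unadjusted p under 0.05 gave 94, 132 and 176 higher and 122, 566 and 528 lower). With the trended and robust variance prior 51 were higher (38 F, 13 R) and 160 lower (60 F, 100 R). Testing only probes measured on all 5 arrays gave 49 higher (33 F, 16 R) and 79 lower (31 F, 48 R), and on at least 3 arrays 34 higher (27 F, 7 R) and 97 lower (40 F, 57 R). Centring on all probes gave 36 higher (26 F, 10 R) and 96 lower (31 F, 65 R), and quantile normalization 33 higher (23 F, 10 R) and 58 lower (20 F, 38 R). The authors' value table gave 13 higher (13 F, 0 R) and 10 lower (3 F, 7 R), a share of lower calls of 43.5% against 67.4%. From the trended prior on, 6.74%, 6.83%, 3.88%, 2.85%, 2.57% and 0.929% of all probes tested were called, in the same order. The main fit called 2.73%. Leaving out 1 array gave 0 to 0 higher on either strand and 0 to 3 lower (F 0 to 1, R 0 to 2), and these designs have fewer samples. The cause of the other changes was not tested. The median difference of members was -0.19, with a range of -0.35 to 0.04 over the other settings, and 0.36 with normexp, where that of all probes was 0.27. With the replicate number as a block, 0 were higher (F 0, R 0) and 1 lower (F 0, R 1), and the median was -0.35. Same-numbered samples share only a number: their deviations over members correlated at -0.06 for number 1 and 0.20 for number 2. The slide could not be a block, since all arrays were on 1 slide, and the planned normexp on mean signal was not run. Signals near background on IL15ko 2 limit what can be measured in dim probes.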

Other observations

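Of the 147 interval probes on chromosome X that met the detection rule, 0 were called (limma), 5 were higher and 15 lower at an unadjusted p under 0.05, and the median log2 difference was -0.08. Of all 26487 probes tested, 2.73% were called, and 2519 were higher and 3352 lower at that unadjusted p. With so few probes, the absence of a call is no result about the chromosome.

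Between arrays of a group, members varied more than other probes. The robust SD of the log2 difference was 0.33 between wild-type 1 and 2 over members and 0.18 over other probes, and 0.73 and 0.42 between IL15ko 1 and 2.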
